A study of Mus musculus with 6 samples.

Results

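The creatine futile cycle lets thermogenic adipocytes spend ATP without UCP1. Creatine kinase transfers phosphate from ATP to creatine next to the mitochondrion, a phosphatase removes it again, and the ADP returned to the mitochondrion keeps respiration and heat production running. The 8 genes described here cover the making of creatine (Gatm, Gamt), its import (Slc6a8), its phosphorylation (Ckb, Ckmt1, Ckmt2) and 2 phosphatases that have been linked to the cycle (Alpl, Phospho1). They were taken by symbol from a table of 16538 genes, all 8 were listed, and 7 of them had a mean of at least 10 normalized counts and were tested. Inguinal white adipose tissue (iWAT), the subcutaneous depot that forms beige adipocytes in the cold, came from chow-fed mice acclimated to 8°C, for 10 days according to the labels. The study's description gives a longer time in the cold. Control mice are called wt in the labels and are fl/fl littermates in the study's description. NRG4-AKO mice (AKO) lacked Nrg4, a secreted growth factor of the EGF family, in adipocytes through a floxed allele and Adiponectin-Cre, so other cells of the depot kept the gene. There were 3 samples per group, each made of RNA pooled from 2 mice, and the age of these mice is not given in the sources used here.

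With limma, 0 of the 7 tested genes of the cycle and 0.0144% of all tested genes passed at an adjusted p under 0.05. DESeq2 called 1 of the 7, Phospho1 (adjusted p = 0.0165), beside 1.12% of the genes to which it gave an adjusted p. Ucp1, the uncoupling protein of thermogenic fat, was 70.1% lower in AKO by its means. It did not pass in limma (adjusted p = 0.0703) and passed in DESeq2 (adjusted p = 1.66e-06). The phosphatase genes Phospho1 and Alpl were the members whose AKO values all lay below the control values, a separation that 8.31% of all tested genes showed. Gatm, Gamt, Slc6a8 and Ckb overlapped between the groups, and Ckmt2 varied with skeletal muscle RNA. Values are read counts divided by a size factor for each sample ("normalized counts"), and differences are on the log2(normalized count + 1) scale.

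The targeted gene and the libraries were checked first. Nrg4 reached 3128, 3102 and 3092 normalized counts in control and 2577, 2627 and 2691 in AKO iWAT. The groups did not overlap, the difference was small (log2 difference -0.24 ± 0.05 SE, adjusted p = 0.298 with limma and 0.0466 with DESeq2), and counts over the whole gene do not show whether the floxed part was transcribed. By qPCR, the paper found almost no Nrg4 mRNA in iWAT of AKO mice. Depth ranged from 17570335 to 18373707 reads on the listed genes. Adipocyte markers were abundant in every sample, with Fabp4, the fatty acid carrier, as the most abundant of 8, and their sum ranged from 436350 to 480939 in control and from 383705 to 440941 in AKO samples. The summed level of 30 skeletal muscle markers, led by Acta1, ranged from 1058 to 36321 in the control samples and from 26979 to 152238 in the AKO samples. That of 8 mammary epithelium markers, led by Krt18, ranged from 25.8 to 1130.4 and from 158 to 1663, and that of 8 lymphocyte markers, led by Cd2, from 181 to 931 and from 180.3 to 1275. Of 8 neutrophil markers 7 were listed, led by Csf3r, and their sum ranged from 85.0 to 93.3 and from 95.4 to 312. The endothelium (led by Cdh5), smooth muscle (Acta2), Schwann cell and nerve, and erythrocyte (Alas2) lists overlapped between groups in their sums. In such bulk samples, fewer cells of a type and less RNA per cell cannot be told apart.

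The upstream sequences of the 3 genes on which the differences below turn are shown to place each gene and the letters it shares with other promoters. They are the 250 bases before the RefSeq start in GRCm38.p6, read 5′ to 3′ in the direction of the gene, with capitals for any match to the E-box letters CACGTG or CAGCTG, the estrogen-related receptor element AAGGTCA or the cAMP response element TGACGTCA. Alpl has 2 starts in the table, and the one farther upstream is shown.
Phospho1 (chr11:95824250-95824499, plus strand): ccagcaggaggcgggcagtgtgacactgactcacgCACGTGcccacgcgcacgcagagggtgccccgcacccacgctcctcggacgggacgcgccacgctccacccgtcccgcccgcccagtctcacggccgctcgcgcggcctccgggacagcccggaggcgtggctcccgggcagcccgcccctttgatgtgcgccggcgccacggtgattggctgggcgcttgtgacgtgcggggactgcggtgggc
Alpl (chr4:137796385-137796634, minus strand): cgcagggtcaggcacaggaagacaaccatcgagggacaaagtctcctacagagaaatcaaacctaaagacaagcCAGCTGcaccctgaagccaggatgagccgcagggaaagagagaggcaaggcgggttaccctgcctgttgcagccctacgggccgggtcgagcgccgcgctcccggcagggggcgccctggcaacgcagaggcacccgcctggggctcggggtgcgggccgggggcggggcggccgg
Ckmt2 (chr13:91876886-91877135, minus strand): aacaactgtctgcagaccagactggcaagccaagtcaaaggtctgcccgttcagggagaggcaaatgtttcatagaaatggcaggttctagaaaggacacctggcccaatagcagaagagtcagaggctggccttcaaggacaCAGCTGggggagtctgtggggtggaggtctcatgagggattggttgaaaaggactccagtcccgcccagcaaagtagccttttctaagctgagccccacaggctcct
Phospho1 held CACGTG 215 bases before its start, letters found in 7.15% of 32851 promoter windows of 300 bases searched on both strands. Alpl held CAGCTG 176 bases and Ckmt2 107 bases before the start, letters found in 16.3% of the windows. AAGGTCA was in 4.72% and TGACGTCA in 1.79% of all windows. Among the 9 windows of the 7 members with an entry, AAGGTCA was found in that of the upstream start of Ckmt1 and TGACGTCA in none. The Phospho1 stretch was rich in G and C (75.6%, with 34 CG pairs), compared with 68.4% and 20 pairs for Alpl and 54% and 2 pairs for Ckmt2.

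Per kilobase of exon, the scale on which different genes can be compared, Phospho1 and Ckb were the most highly expressed members in control iWAT. Their means were 172 and 158 normalized counts per kb, their ranges overlapped, and Phospho1 was the higher in 2 of 3 control samples. Gamt (124), Slc6a8 (99.9), Gatm (86.5), Alpl (63.5) and Ckmt2 (26.7) followed in that order, each with a range clear of its neighbor's. Ckmt1 came last at 2.31, and its range overlapped that of Ckmt2. In AKO iWAT the order of the means was Ckb (165), Gamt (146), Slc6a8 (108), Phospho1 (103), Gatm (89.8), Alpl (52.5), Ckmt2 (50.1) and Ckmt1 (1.69). Phospho1 thus ranked first or second in the control samples and between 3 and 5 in the AKO samples, while Ckb ranked first in every AKO sample. The rank of Phospho1 is uncertain, because only 211 of its 2029 exonic bases are its own, as described below. The ranges of Phospho1 overlapped those of Slc6a8 and Gatm in AKO iWAT, as did those of Ckb and Gamt and those of Alpl and Ckmt2.

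**Figure D1:**
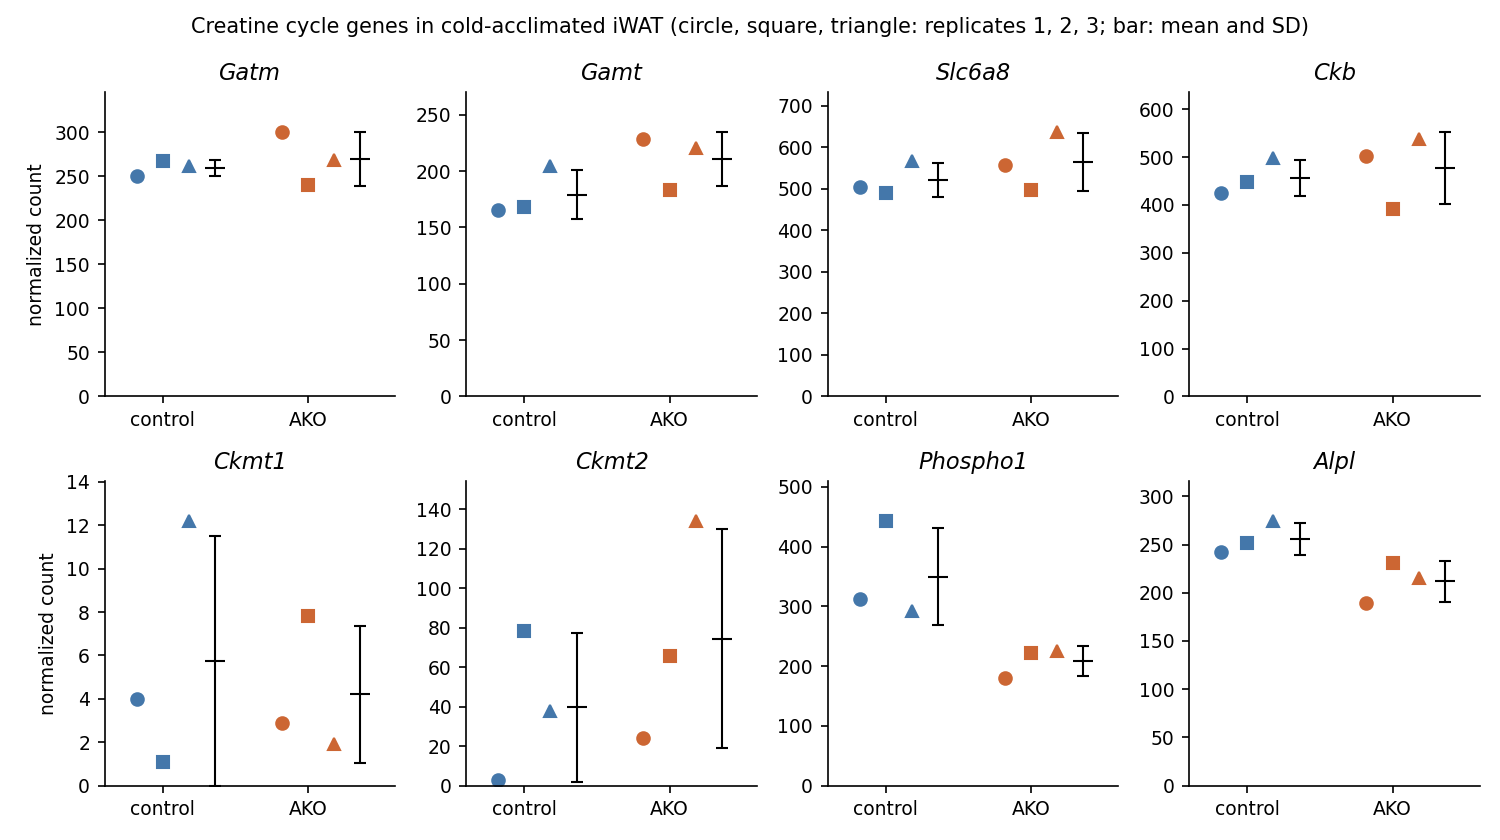
Normalized counts (vertical axes, starting at 0) of the 8 genes in the 3 control (blue) and 3 AKO (orange) samples, with symbols for replicates 1 to 3 and black bars for the mean and SD. Phospho1 and Alpl are the panels in which the groups do not overlap, and the Ckmt2 values spread from 3.01 to 134.

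Phospho1 encodes a phosphatase of phosphoethanolamine and phosphocholine best known from mineralizing cartilage and bone. Its normalized counts were 313, 443 and 293 in control and 179.6, 222 and 226 in AKO iWAT. Every AKO value lay below every control value, and the highest control sample, control 2, was also the highest in Ucp1. The mean was 40.2% lower in AKO (349.6 ± 81.5 against 209 ± 25.5, SD, n = 3 pools each), a log2 difference of -0.72 ± 0.17 (SE, 95% interval -1.12 to -0.33). With limma the unadjusted p was 0.00283 and the adjusted p over 13855 genes was 0.315. On whole reads recovered from the table, the adjusted p was 0.0165 with DESeq2 and 0.310 with edgeR's quasi-likelihood test, and across all 18 alternatives it ranged from 0.0165 to 0.637. The 2-sided exact permutation test gave p = 0.1, the smallest that 3 samples against 3 allow. Leaving out each sample in turn gave log2 differences from -0.84 to -0.54, the latter without control 2.

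Reads of Phospho1 cannot be separated fully from those of its neighbors. Phospho1 (ENSMUSG00000050860, chr11:95824499-95832140, plus strand, GRCm38) shares 89.6% of its 2029 exonic bases with Zfp652 on the same strand and 84.2% with Abi3 on the opposite strand in GENCODE M21, which leaves 211 bases of its own. The authors counted on a later release, GENCODE M25, in which the overlap was not checked. Neither the strand setting of the counting nor its handling of shared bases is given in the sources used here, so the level per kb of Phospho1 is uncertain. Zfp652, a zinc finger gene, had 226, 186 and 185 normalized counts in control and 182, 224 and 207 in AKO samples, and the groups overlapped (log2 difference 0.04 ± 0.12). Abi3, an adaptor of actin remodeling expressed in immune cells, had 343, 503 and 396 in control and 278, 324 and 319 in AKO samples. Every AKO value of Abi3 lay below the control values as well (log2 difference -0.42 ± 0.14, adjusted p = 0.492), and across the 6 samples Abi3 followed Phospho1 with r = 0.95. The ratio of Phospho1 to Abi3 was 0.912, 0.880 and 0.738 in control and 0.645, 0.684 and 0.707 in AKO samples, lower in every AKO sample. The sum of the 3 genes was 882, 1132 and 874 in control against 641, 769 and 752 in AKO samples, so that the groups stayed apart. These sums and ratios were chosen after the values were seen and were not tested.

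Alpl encodes tissue-nonspecific alkaline phosphatase, the enzyme assigned to phosphocreatine hydrolysis in thermogenic fat. Its values were 242, 252 and 274 normalized counts in control and 189, 231 and 215 in AKO iWAT. All AKO values were lower, by a smaller margin than for Phospho1, since AKO 2 lay close to control 1. The mean was 17.2% lower (256 ± 16.7 against 212 ± 21.3), with a log2 difference of -0.27 ± 0.11 (95% interval -0.52 to -0.03). The unadjusted p was 0.0341, the adjusted p was 0.522 with limma, 0.842 with DESeq2 and 0.517 with edgeR, and none of 18 alternatives called it (adjusted p from 0.349 to 0.842). Alpl lies at chr4:137741733-137796384 on the minus strand and shares no exonic base with another gene in GENCODE M21.

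Read against the whole table, 2 of the 7 members with lower values in every AKO sample compare with 8.31% of all tested genes that did so, and 0 of 7 with higher values in every AKO sample compare with 6.14%. At an unadjusted p under 0.05 in limma the same 2 genes passed, beside 9.1% of all genes in either direction and 4.69% in the lower direction. With an adjusted p under 0.05, limma called 0 of 7 members and 0.0144% of all genes, and edgeR called 0 of 7 and 0.0144%. DESeq2 called 1 of 7, Phospho1, beside 1.12% of the 13575 genes to which it gave an adjusted p. The members' median log2 difference was 0.05, and that of all tested genes was 0.01. The members' list was chosen with earlier results of these data known, so these counts describe it and do not test it.

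**Figure D2:**
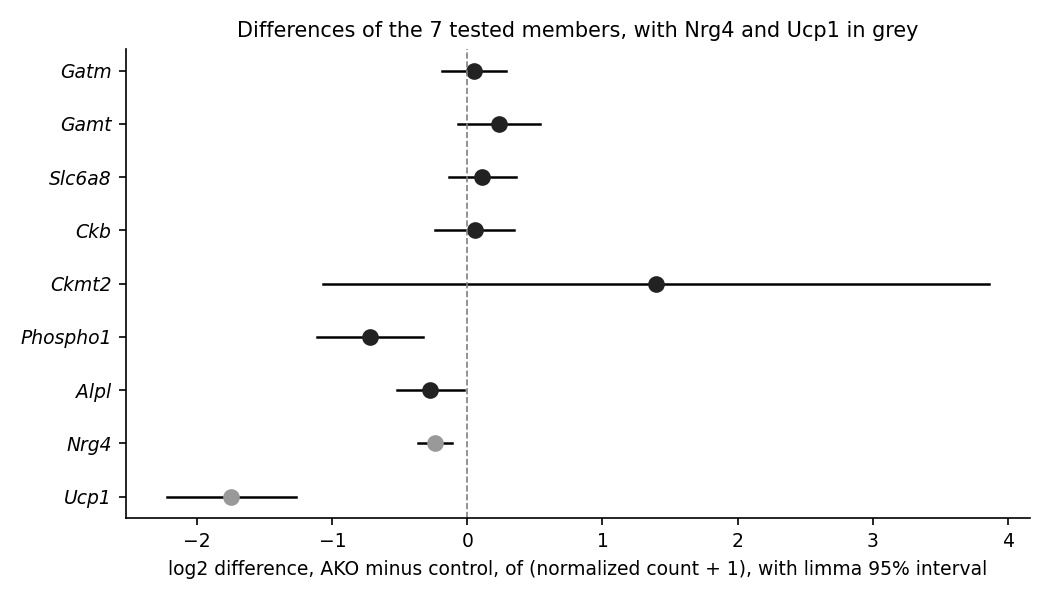
Log2 differences of AKO against control (horizontal axis, points) with their 95% intervals from limma (lines) for the 7 tested members in black, and for Nrg4 and Ucp1 in grey. The intervals of Phospho1 (-1.12 to -0.33) and Alpl (-0.52 to -0.03) lie below 0, those of the other members include 0, and Ucp1 lies at -1.75.

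Synthesis begins with GATM, which joins the guanidino group of arginine to glycine in mitochondria. Gatm had 249.9, 268 and 261 normalized counts in control and 301, 240.2 and 268 in AKO samples. The AKO values lay on both sides of the control values, and the log2 difference was 0.05 ± 0.10 (95% interval -0.19 to 0.29, adjusted p = 0.931). GAMT then methylates guanidinoacetate to creatine with S-adenosylmethionine. Gamt had 166, 168 and 204 in control and 229, 184 and 221 in AKO samples. Only AKO 2 fell within the control range, and the log2 difference of 0.23 ± 0.13 (95% interval -0.07 to 0.54, adjusted p = 0.643) was positive in all 18 alternatives and called in none. The ratio of Gatm to Gamt per kb was 0.726, 0.768 and 0.615 in control and 0.633, 0.630 and 0.584 in AKO samples, and the groups overlapped.

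Slc6a8, on the X chromosome, encodes the creatine importer of the plasma membrane. Its values were 505, 489 and 567 normalized counts in control and 557, 497 and 637 in AKO samples, with overlapping groups and a log2 difference of 0.11 ± 0.11 (95% interval -0.14 to 0.36, adjusted p = 0.819). Ckb, the brain-type creatine kinase that phosphorylates creatine in thermogenic fat, had 424, 447 and 498 in control and 502, 391 and 537 in AKO samples. AKO 2 was the lowest and AKO 3 the highest of all 6 samples. The log2 difference was 0.05 ± 0.13 (95% interval -0.24 to 0.35, adjusted p = 0.943), which holds fold changes between 0.846 and 1.27. For the 4 genes of synthesis, import and cytosolic phosphorylation, these intervals leave room for modest changes in either direction. For Gamt the room lies mostly upward (fold changes between 0.954 and 1.45).

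Pairs of members varied together to different degrees. Over the 6 samples, on the log2 scale, Pearson's r was 0.89 between Ckb and Slc6a8, 0.83 between Gamt and Slc6a8, 0.78 between Ckb and Gamt, 0.71 between Ckb and Gatm, 0.65 between Gatm and Gamt and 0.41 between Gatm and Slc6a8. Phospho1 and Alpl had r = 0.76 with each other, Phospho1 had r = -0.77 with Gamt, -0.50 with Slc6a8, -0.32 with Gatm and -0.27 with Ckb. Alpl had r = -0.61 with Gatm, -0.59 with Gamt, -0.32 with Slc6a8 and -0.28 with Ckb. The points share the same 6 libraries and the difference between groups, and the coefficients are given as a description.

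By their group means per kb, the mitochondrial creatine kinases were the least expressed members, although Ckmt2 ranked 5 in AKO 3. Ckmt1, the ubiquitous form, had 4.01, 1.08 and 12.2 normalized counts in control and 2.88, 7.81 and 1.93 in AKO samples, and its mean was too low for testing. Its highest values were in control 3 and AKO 2, the samples with the highest Epcam, an epithelial adhesion molecule, which had 72.3, 0, 166, 18.2, 265 and 81.0 normalized counts in the same order of samples. The part of mammary epithelium in the Ckmt1 values was not tested.

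Ckmt2, the sarcomeric mitochondrial creatine kinase, had 3.01, 78.5 and 37.6 normalized counts in control and 24.0, 65.4 and 134 in AKO samples. The groups overlapped widely, and the difference (1.40 ± 1.07, 95% interval -1.07 to 3.86, adjusted p = 0.758) rested on control 1, without which it was 0.13. Ckm, the muscle creatine kinase, had 4.01, 1363 and 961 in control and 1220, 4640 and 6875 in AKO samples. Acta1, skeletal muscle actin, had 62.2, 6536 and 3498 in control and 4377, 15282 and 27039 in AKO samples. Control 1, with 3 reads of Ckmt2 and 4 of Ckm, was the only sample to list the muscle genes Myoz1 and Myot at 0, while its Ucp1 was 18058 normalized counts. This library, with the least muscle RNA, held almost no Ckmt2, while control 3 held 37.6 normalized counts of Ckmt2 at a Ucp1 of 16827.

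**Figure D3:**
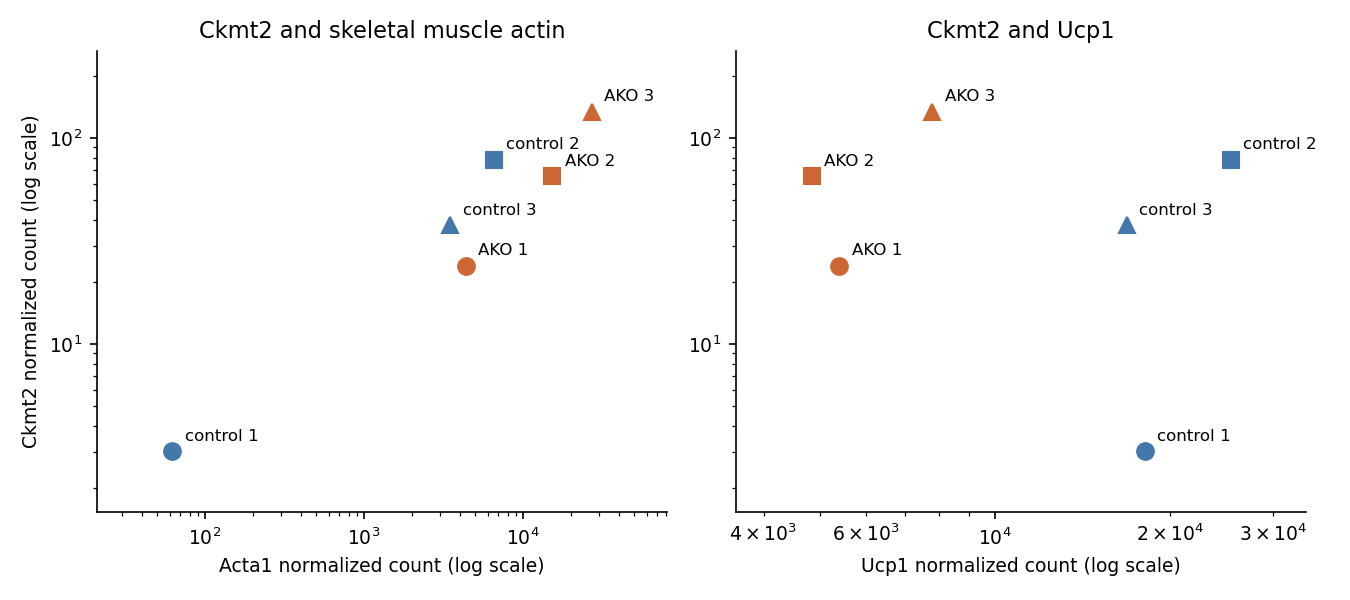
Ckmt2 normalized counts (vertical axes, log scale) against Acta1 (left) and Ucp1 (right, both log scale) in the 6 samples, control in blue and AKO in orange. Ckmt2 rises with Acta1 from control 1 (3.01) to AKO 3 (134). Control 1 and control 3 lie close in Ucp1 (18058 and 16827) and apart in Ckmt2 (3.01 and 37.6).

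Across the 6 samples, Ckmt2 followed Acta1 with r = 0.97, Ckm with r = 0.95 and the mean log2 level of the 30 muscle markers with r = 0.97. That mean level was 3.50 in control 1 and between 7.80 and 10.0 in the other 5 samples. Per 1000 normalized counts of Acta1, Ckmt2 was 12.0 and 10.8 in control 2 and control 3 and 5.48, 4.28 and 4.96 in the AKO samples, whereas the value of control 1 (48.4) rests on 3 reads. The AKO samples thus held less Ckmt2 for their muscle actin than the control samples. With the mean muscle level as a covariate in limma, the difference of Ckmt2 turned to -0.70 ± 0.36 (adjusted p = 0.488). Control 2 was the highest in Myh2, a myosin of fast oxidative fibers (126 normalized counts against 1.95 to 30.7 in the other samples), and in Mb, the oxygen carrier myoglobin (120.4 against 12.0 to 25.9). Whether fiber type, muscle carried along with the fat or the adipocytes set the Ckmt2 level was not tested.

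The makeup of the creatine kinase transcripts differed between samples mainly through Ckm. Per kb, Ckb made up 96.7%, 22.9% and 32.3% of the transcripts of Ckb, Ckm, Ckmt1 and Ckmt2 in control and 28.5%, 7.62% and 7.04% in AKO samples. Control 1 stood apart from all others, and the groups overlapped (difference of means -36.3 percentage points, 2-sided exact permutation test, p = 0.2). Without control 1 the difference was -13.2 percentage points. Without Ckm, the share of Ckb was 97.6%, 74.4% and 85.1% in control and 90.9%, 74.1% and 67.1% in AKO samples (difference -8.28 percentage points, exact p = 0.4). Leaving out samples moved this difference from -15.0 (without AKO 1) and -13.9 (without control 2) to -3.14 (without AKO 3) and -2.33 (without control 1). Ckb was the main creatine kinase transcript of every sample once Ckm was left out, and Ckmt2 made up most of the remainder except for the near-equal shares of Ckmt2 and Ckmt1 in control 1 (1.35% and 1.07%).

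**Figure D4:**
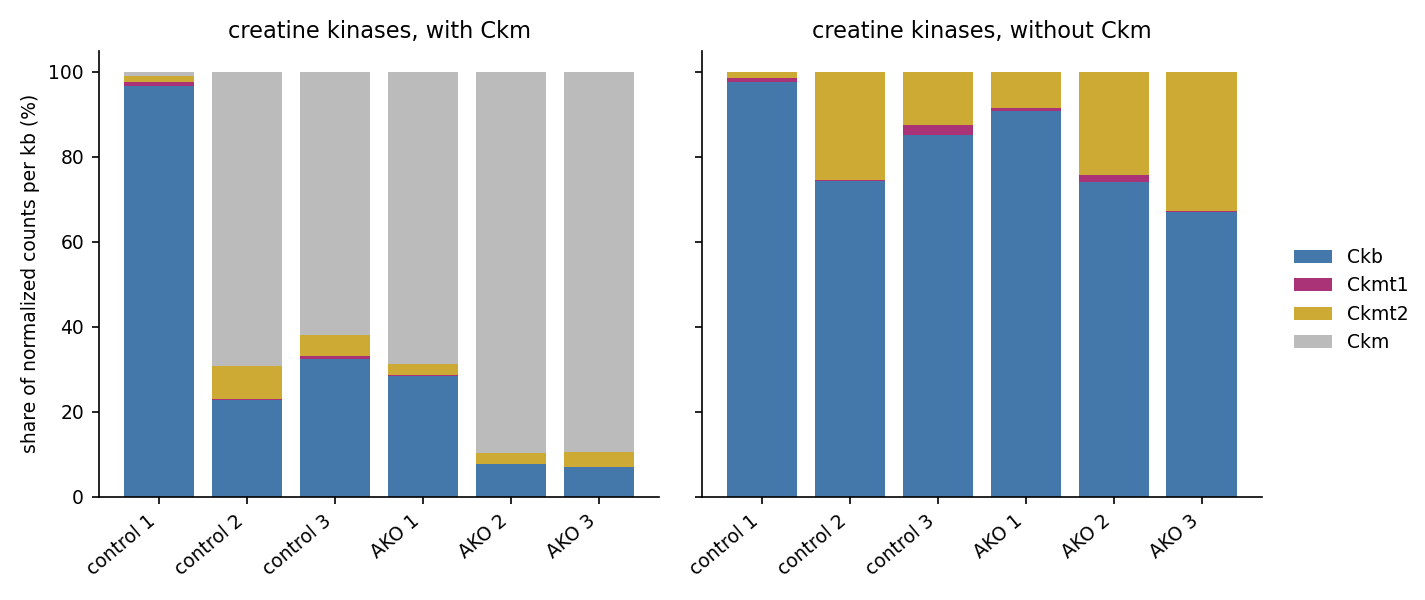
Share of each creatine kinase gene in the normalized counts per kb (vertical axis, percent) in each sample, with Ckm (left) and without it (right). Ckb takes 96.7% in control 1 and 7.04% in AKO 3 with Ckm, and 67.1% to 97.6% in all samples without it.

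Ucp1, the alternative route of heat production, had 18058, 25393 and 16827 normalized counts in control and 5401, 4836 and 7801 in AKO samples (log2 difference -1.75 ± 0.21, adjusted p = 0.0703 with limma and 1.66e-06 with DESeq2). The highest AKO value of Ucp1 was far below its lowest control value. Of 12 thermogenic genes taken as a reference, 12 had lower means on the log2 scale in AKO (median log2 difference -0.94), 1 was called by limma, and 8 by DESeq2. Over all tested genes, 6662 of 13855 had lower means, limma called 0.0144%, and DESeq2 called 1.12% of those given an adjusted p. Relative to Ucp1 in the same sample, Phospho1 was the steadiest member in control iWAT, at 17.3, 17.4 and 17.4 per 1000 normalized counts of Ucp1, against 33.3, 45.8 and 28.9 in AKO. Its log2 ratio to Ucp1 was 1.02 higher in AKO, the smallest shift among the 7 tested members. The shift was 1.47 for Alpl, 1.80 for Ckb and Gatm, 1.86 for Slc6a8, 1.98 for Gamt and 3.14 for Ckmt2 (2-sided exact permutation test, p = 0.1 for each), and 1.6 for Ckmt1 (exact p = 0.3). The shift of Ckmt2 was 1.95 without control 1 (exact p = 0.2), and that of Ckmt1 was 0.758 without control 2 and 0.992 without AKO 2. All 7 tested members had a higher ratio in every AKO sample, as did 97.9% of the tested genes other than Ucp1, so this separation is the background of the table. All ratios share the Ucp1 values.

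**Figure D5:**
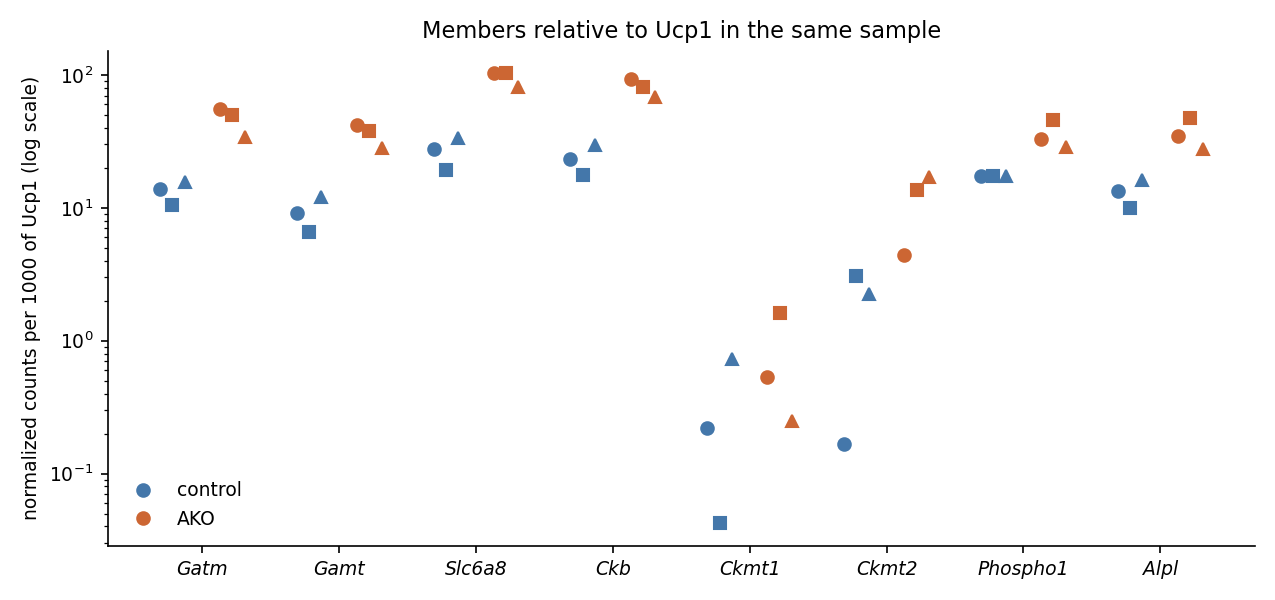
Normalized counts of each gene per 1000 normalized counts of Ucp1 in the same sample (vertical axis, log scale), control in blue and AKO in orange, with symbols for replicates 1 to 3. The control points of Phospho1 coincide near 17.4, and the AKO points lie above the control points for every gene but Ckmt1.

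Genes that feed the cycle were described from 4 lists, and no gene of them was called by limma, edgeR or DESeq2. At an unadjusted p under 0.05 in limma, 1 gene of the 34 tested passed, beside 9.1% of all tested genes. Of all 13855 tested genes, 6662 had lower mean log2 values in AKO. In the arginine supply list, 7 of 8 genes were tested, 3 with lower and 4 with higher mean log2 values in AKO (median 0.08). Oat, ornithine aminotransferase, was the most highly expressed of them per kb, at 645 in control and 682 in AKO. Arg1, arginase, had the lowest difference (-0.50 ± 0.58), and Slc7a2, a cationic amino acid transporter, the highest (0.77 ± 0.43, adjusted p = 0.648), with AKO values of 113, 424 and 302 that overlapped the control values of 133, 122 and 179.9.

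In the glycine and methyl supply list, 8 of 10 genes had lower mean log2 values in AKO (median -0.06). Shmt1, which interconverts serine and glycine in the cytosol, had 175, 230.1 and 192 normalized counts in control and 129.6, 158 and 152 in AKO samples. Every AKO value was lower, and the log2 difference was -0.43 ± 0.14 (unadjusted p = 0.0137, adjusted p = 0.454). Slc6a9, a glycine transporter, had the highest difference (0.11 ± 0.13). Mat2a, which makes S-adenosylmethionine, was the most highly expressed per kb, at 937 in both groups. Gnmt, which spends S-adenosylmethionine on glycine, was the other gene of the list with all AKO values below the control values (15.5 ± 0.53 against 11.9 ± 1.5). Its values rested on 11 to 16 reads per sample, and the log2 difference was -0.35 ± 0.30 (adjusted p = 0.784 with limma). Such a separation was found in 8.31% of all tested genes.

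In the adenylate and phosphate exchange list, 11 of 12 genes were tested and 8 had lower means on the log2 scale (median -0.03). Slc25a5, an ATP and ADP carrier, had the lowest difference (-0.13 ± 0.06). Ak1, the cytosolic adenylate kinase that is abundant in muscle, had the highest (0.62 ± 0.35), with its top values in AKO 2 (860.1) and AKO 3 (1143), the samples with the most Acta1. In the list of pyrophosphate and mineralization partners of the phosphatases, 6 of 9 genes were tested and 5 had higher means on the log2 scale (median 0.12). Ank, a pyrophosphate exporter, was the most highly expressed per kb, at 462 in control and 509 in AKO. Slc20a2, a phosphate importer, had the lowest difference (-0.12 ± 0.09), and Smpd3, a sphingomyelinase needed for bone mineralization, the highest (0.63 ± 0.37, adjusted p = 0.662).

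The genes most like each member over the 6 samples, by Pearson's r on the log2 scale, are given as a description of 13855 genes searched. They were Rhot2 (0.998), Rcbtb2 (0.998) and Idh3b (0.997) for Phospho1, and Nqo1 (0.980), Timm8b (0.972) and Ccdc114 (0.970) for Alpl. For Ckb they were Ier2, Cytl1 and Ptgs1, for Gatm Tet1, Tapbp and Zfp706, for Gamt Csf1r, Ndst2 and Rad51b, for Slc6a8 Spon1, Fam195b and Sult1a1, and for Ckmt2 Gstp1, Ccne2 and Birc5, all with r between 0.980 and 0.995. With 6 points and so many genes, coefficients this high were found for every member tested.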

How the data were processed

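Reads from iWAT were aligned by the authors with STAR to GRCm38 and assigned to genes with featureCounts, and the filter that selected the 16538 listed genes is not given in the sources used here. The deposited signal is each gene's count scaled by the size factor that DESeq2 gave the sample, without correction for length. The authors' own fold changes and p-values in the table were not used. Values were whole multiples of 1 read (largest deviation 0.000385 reads), which gave the recovered reads.

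The 13855 genes averaging 10 or more normalized counts were tested on log2(value + 1) with limma (3.58.1, R 4.3.3, trended variance, Benjamini-Hochberg over all genes), with edgeR (4.0.16) and DESeq2 (1.42.0) on recovered reads as alternatives. Exon lengths and overlaps came from GENCODE M21 (15865 symbols matched), an earlier release than the M25 of the counting, and promoters from RefSeq, GRCm38.p6. Replicates within groups differed by more than sampling noise. Nothing states that pools came from separate litters or days, so p-values measure the spread between these samples. The members and lists were chosen with earlier results of these data known. Named genes were all members, Ckm, Ucp1, from each companion list the most expressed gene per kb and those with the lowest and highest difference, from each marker list the most abundant gene, and the 3 genes most like each member. Abi3, Zfp652, Nrg4, Epcam, Acta1, Myh2, Mb, Myoz1, Myot and Gnmt were named after their values were seen. Some genes that this rule names are not reported here. Protein sequences were not used here.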

Additional observations from a re-analysis of the deposited data

How the results depend on the processing

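Each comparison was repeated with other pseudocounts, filters, scalings, tests, a muscle covariate and each sample left out. Of the members, DESeq2 called 1, Phospho1 (-0.74), and every other alternative called 0, as in the limma test. The signs of Phospho1, Alpl, Gamt and Slc6a8 held in all 18 alternatives. Leaving out samples moved Ckb from -0.039 (without AKO 3) to 0.19, Gatm from -0.033 (without AKO 1) to 0.13 and Ckmt2 from 0.13 (without control 1) to 2.29. Ckmt2 was -0.70 with the muscle covariate. The cause of the changes in sign was not tested. Over all genes, limma called 2, against 6 with at least 10 normalized counts in every sample, 152 with DESeq2, 11 with robust shrinkage, 0 with the muscle covariate and 0 to 3 with a sample left out. No gene of the companion lists was called under any alternative.

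The deviations of same-numbered samples from their group means had correlations of 0.135, -0.351 and 0.240. Those of other-numbered samples ran from -0.500 to 0.335. With 3 samples per group, this check cannot show whether the replicate numbers pair the samples. With the replicate block, limma called 2 genes in all and 0 members, and the difference of Phospho1 had an adjusted p of 0.142. The depth limits Ckmt1, with 1 to 12 reads per sample, and the Ckmt2 value of control 1.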
